A study of Mus musculus with 9 samples.

Results

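The Schlafen genes are 7 members of the mouse Schlafen family, Slfn1, Slfn2, Slfn3, Slfn4, Slfn5, Slfn8 and Slfn9, taken by symbol from the 24421 gene symbols of the count tables. The members were chosen by their family name, with the levels and the genotype and sort differences of these same libraries in view, so their levels and calls below describe the libraries and support nothing beyond them. All 7 had at least 1 read somewhere, and 5 of 7 passed the filter on low counts and are among the 11577 genes tested. Slfn1 and Slfn3 did not pass it and are described without a test. The RNA came from cells of the intestine of C57BL/6 mice aged 6 days after birth, sorted by surface EphB2, a receptor that is high in the lower crypt and falls toward the villus. The mice carried intact Nfkbia (wild type, WT) or were deficient in its product IκBα (KO), the inhibitor that holds NF-κB dimers in the cytoplasm. Of 9 libraries, 2 were from EphB2-positive and 2 from EphB2-negative WT cells, and 3 were from EphB2-positive and 2 from EphB2-negative KO cells, which makes 4 groups. How the deletion was made, and in which cells, is not given in the sources used here.

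Schlafen proteins share an N-terminal core with endoribonuclease activity in several members, and many are induced by type I interferon and expressed in lymphoid and myeloid cells. Mouse members fall into a short group (Slfn1, Slfn2), an intermediate group (Slfn3, Slfn4) and a long group with a helicase-like C-terminal part (Slfn5, Slfn8, Slfn9). Slfn2 is known for keeping T cells quiescent, and Slfn3 has been studied in enterocyte differentiation.

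In cells lacking IκBα, Slfn2 was higher in both sorts, whereas Slfn4 was higher and Slfn9 lower in the EphB2-negative sort. The call of Slfn9 held in 4 of 15 alternatives (log2 fold change -3.06 to -0.88, adjusted p up to 0.19), and with the EphB2-negative libraries alone 0 of 5 members were called in that sort. The count over all genes in that last fit is not reported here, so nothing is read from this 0. In EphB2-positive cells 1 of 5 tested Schlafen genes was called higher (Slfn2) and none lower, against 15.1% of all genes tested that were called in that comparison, 7.01% higher and 8.07% lower. In EphB2-negative cells 2 were called higher (Slfn2, Slfn4) and 1 lower (Slfn9), against 29.9% of all genes, 13.7% higher and 16.2% lower. Between the sorts within KO, 3 were lower in EphB2-positive cells (Slfn2, Slfn4, Slfn5) and 1 higher (Slfn9), against 55.5% of all genes, 29.2% lower and 26.4% higher. Between the sorts within WT, edgeR called 0 of 5, against 4.43% of all genes, 0.656% higher and 3.77% lower. There 2 had an unadjusted p under 0.05 (Slfn2, Slfn9), and DESeq2 called 0. A genotype effect that differed between sorts was called by edgeR for 0 of 5, against 12.4% of all genes, 6.54% higher and 5.81% lower. For that difference 2 had an unadjusted p under 0.05 (Slfn4, Slfn9), and DESeq2 called 1 (Slfn9). Shares of all genes at an unadjusted p under 0.05 or with DESeq2 are not reported here, so nothing is read from those counts. A gene was called when edgeR's two-sided quasi-likelihood test gave it an adjusted p (Benjamini-Hochberg, 11577 genes) under 0.05.

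The groups can also be read by whether their libraries overlap. For KO against WT in EphB2-positive cells, every KO library was above every WT library for 2 of the 5 tested members (Slfn2, Slfn9) and below for 0, against 26.9% and 28.6% of all genes tested. In EphB2-negative cells it was above for 3 (Slfn2, Slfn4, Slfn5) and below for 1 (Slfn9), against 28.7% and 34.6%. Between the sorts within WT, the EphB2-positive libraries were all above for 1 (Slfn9) and all below for 1 (Slfn2), against 26.5% and 28% of all genes. Within KO they were all above for 1 (Slfn9) and all below for 3 (Slfn2, Slfn4, Slfn5), against 37.7% and 39.5%. Since the members were chosen with these values known, nothing is read from these shares.

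The libraries held 1503972 to 2074076 reads in genes. Values are CPM, the read count of a gene relative to the size of its library after scaling by edgeR's TMM factors, and 3 reads, used as the floor, correspond to 1.37 to 2.002 CPM in a library. Intervals rest on reads pooled over the libraries of a group, so they cover counting error only and leave out the spread between libraries. Floors leave out that spread as well. The cDNA was amplified by PCR and carried no molecular identifiers. Reads need not be separate molecules, and the counting error may be larger than given. Whether replicates are separate animals is not given in the labels, so each p-value is relative to the spread of these samples, which may be technical. Nfkbia had 0 reads in each of the 5 KO libraries and 221 and 161 reads in the EphB2-positive and EphB2-negative WT groups, at least 100.5-fold and 39.5-fold lower in KO. Epithelial markers summed to 6809 to 10675 CPM in every library. The WT EphB2-negative pair stood apart from the other replicate pairs. Its log2 CPM correlated across genes at r = 0.862, against 0.966 to 0.984 for the other pairs. Replicate 1 of that group had 2355 CPM of summed crypt stem cell markers and 132 CPM of pan-leukocyte markers, and replicate 2 had 570 and 1137 CPM. Ephb2 itself stood at 125 and 66.8 CPM in these 2 libraries, against 142 and 160 CPM in WT EphB2-positive, so replicate 1 lay close to the level of the other sort. Levels of the members in that group are therefore given library by library.

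All members lie in a single cluster of 9 Schlafen loci spanning 335.4 kb of chromosome 11 (GRCm38, 82951349 to 83286726). In order along the chromosome these are Slfn5, Slfn9, Slfn8, the pseudogene Slfn10-ps, Slfn2, Slfn1, Slfn4, Slfn3 and Slfn14. The longest coding sequences in GENCODE have 337 codons for Slfn1, 378 for Slfn2, 602 for Slfn4, 640 for Slfn3, 884 for Slfn5 and 910 for both Slfn8 and Slfn9. Slfn3 and Slfn4 are 93.7% identical over their aligned coding bases and Slfn8 and Slfn9 are 93.0% identical. Of all 50-base stretches of their transcripts, 11.2% in Slfn9, 14.6% in Slfn8, 8.16% in Slfn4 and 7.39% in Slfn3 occur in another family gene, against 4.27% in Slfn2, 0.606% in Slfn1 and 0% in Slfn5. Reads from shared stretches could be split between these genes by the counting, so levels within the pairs Slfn8 with Slfn9 and Slfn3 with Slfn4 are uncertain to that extent. An annotated antisense gene overlaps Slfn2 and another overlaps Slfn5. The strand setting of the counting is not given in the sources used here, so reads of Slfn2 and of its antisense partner cannot be told apart. The antisense gene of Slfn5, Slfn5os, had 0 reads in all libraries.

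The promoters of Slfn2, with the largest difference between the genotypes among the tested members, and Slfn9, with the largest between the sorts within KO, are shown with that of Slfn8, the close relative of Slfn9, because their letters can be read beside the expression values. The 120 bases before each start site are given 5′ to 3′ on the strand of the gene, from RefSeq (GRCm38.p6). Capitals mark a kappa B match (GGGNNTTCC) in Slfn2 and a match to the core of the interferon-stimulated response element (GAAANNGAA, here on the opposite strand) in Slfn9 and Slfn8. All motifs were searched on both strands, and no overlap between matches of different motifs occurred in these windows. Slfn2 is at chr11:83064992-83065111 on the plus strand, Slfn9 at chr11:82991831-82991950 and Slfn8 at chr11:83020811-83020930, both on the minus strand.
Slfn2: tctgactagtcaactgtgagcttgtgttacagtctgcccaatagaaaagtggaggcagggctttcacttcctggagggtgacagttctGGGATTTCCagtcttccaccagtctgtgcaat
Slfn9: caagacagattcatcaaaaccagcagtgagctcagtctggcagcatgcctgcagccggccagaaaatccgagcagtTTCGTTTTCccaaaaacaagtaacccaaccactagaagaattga
Slfn8: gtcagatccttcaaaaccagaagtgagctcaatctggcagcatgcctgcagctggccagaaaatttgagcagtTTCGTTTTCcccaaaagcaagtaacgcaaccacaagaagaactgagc
The Slfn2 match, GGGATTTCC, runs from position -32 to -24 relative to the start site. The Slfn9 and Slfn8 windows carry the same letters, TTCGTTTTC, at -44 to -36 and at -47 to -39. Over their 300-base promoters Slfn9 and Slfn8 align at 250 of 288 bases (86.8%), gaps left out. Other family pairs ran from 71.6% (Slfn3 with Slfn9) to 84.0% (Slfn2 with Slfn14), over fewer aligned bases. Slfn8 has another promoter in RefSeq, not printed here, in which the letters TTCGTTTTC lie at -135 to -127. Slfn9 has a further kappa B match at -213 to -205, outside the printed window, and the promoter of Slfn5 has 2 response-element matches and 1 kappa B match. Those of Slfn1, Slfn3 and Slfn4 hold no match to these motifs, and no member has a match to the interferon-gamma activated site (TTCNNNGAA). Among all 32851 promoters of the same length, 8.56% hold the response-element core, 8.3% the activated site and 5.82% the kappa B letters. A match describes the letters only and is not a bound site.

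Slfn2, of the short group, was the tested member with the largest difference between genotypes in both sorts. In EphB2-positive cells it had 1 and 5 reads in the WT libraries and 50, 85 and 72 reads in the KO libraries, which is 0.491 and 2.47 CPM against 33.4, 40.5 and 37.0 CPM. In EphB2-negative cells it stood at 2.74 and 21.3 CPM in WT and at 361 and 381 CPM in KO. Every KO library was thus above every WT library, and the KO EphB2-negative libraries were the highest of all. The log2 fold change of KO against WT was 4.59 ± 0.84 (SE, edgeR adjusted p = 0.011) in EphB2-positive and 4.96 ± 0.60 (adjusted p = 0.0015) in EphB2-negative cells. The ratio of pooled CPM in EphB2-positive cells was 25.3, with a 95% counting interval of 11.4 to 69.7, since the WT side rests on 6 reads. That call was lost when either WT library of the sort was left out, with an adjusted p of 0.091 without replicate 1 and 0.055 without replicate 2. In EphB2-negative cells the adjusted p was 0.064 when the test used those 4 libraries alone.

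Within KO, Slfn2 was lower in EphB2-positive than in EphB2-negative cells, by -3.32 ± 0.46 on the log2 scale (edgeR adjusted p = 7e-04). Within WT the difference was -2.95 ± 1.02 (adjusted p = 0.11). WT EphB2-negative replicate 1, at 2.74 CPM, lay next to the WT EphB2-positive libraries, and without it the WT difference was -3.79 (adjusted p = 1.8e-06), whereas without replicate 2 of that group it was -0.88 (adjusted p = 0.63). Leaving out a WT EphB2-positive library gave -2.22 without replicate 1 (adjusted p = 0.36) and -4.42 without replicate 2 (adjusted p = 0.26). With a block on a code in the file names, whose meaning the labels do not give, the WT difference was -2.95 and passed (adjusted p = 0.0035). The genotype effect on Slfn2 differed between the sorts by -0.37 ± 1.55 (adjusted p = 0.91), by -2.44 without WT EphB2-negative replicate 2 (adjusted p = 0.024), by 0.48 without replicate 1 of that group (adjusted p = 0.57) and by 1.11 without WT EphB2-positive replicate 2 (adjusted p = 0.80).

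**Figure D1:**
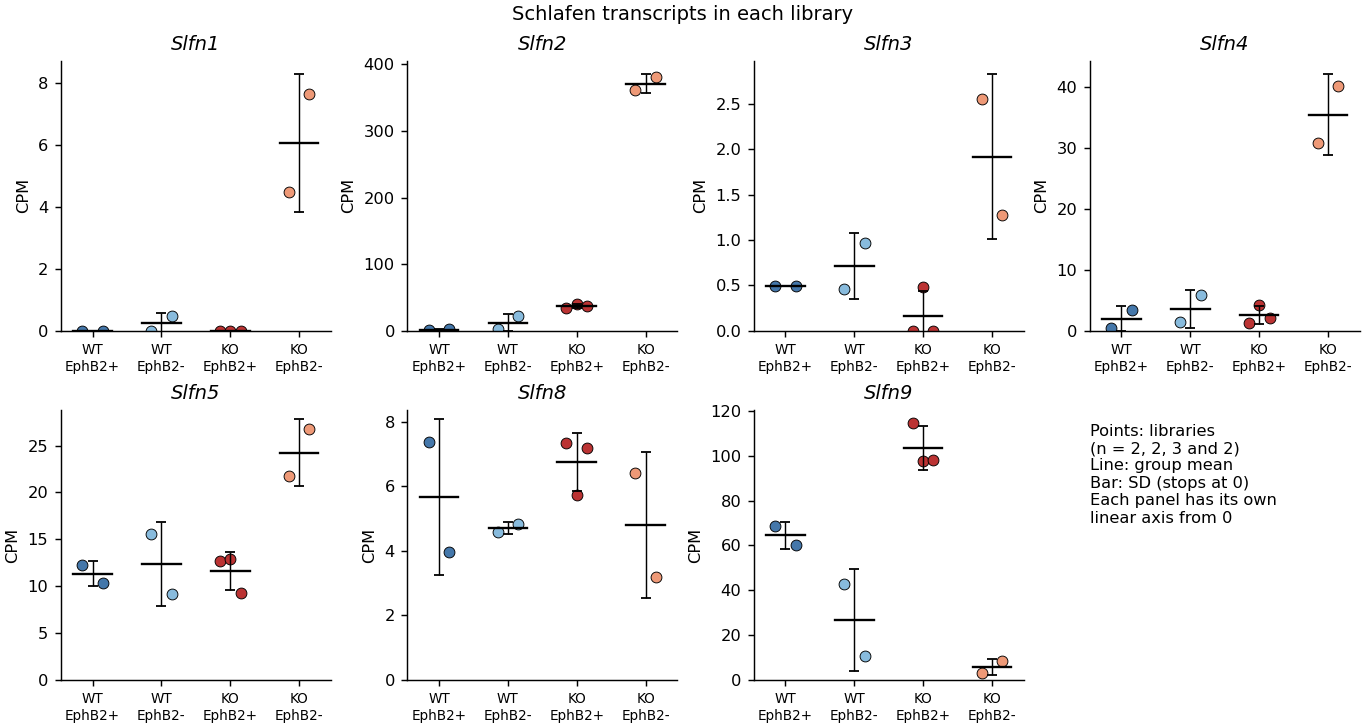
Level of each Schlafen gene in every library, in CPM on a linear axis from 0 that differs between panels, with groups along the horizontal axis. Points are libraries, lines are group means and bars are the SD. The KO EphB2-negative libraries are the highest for Slfn1, Slfn2, Slfn3, Slfn4 and Slfn5, whereas Slfn9 is highest in the KO EphB2-positive libraries at 97.6 to 115 CPM.

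Marker genes of blood cells also differed between the sorts, and in bulk samples fewer cells of a type and less RNA per cell cannot be told apart. The 11 pan-leukocyte genes summed to 63.6 to 70.7 CPM in the WT libraries of the positive sort and 93.4 to 112 CPM in the KO libraries of that sort. In the negative sort they summed to 132 and 1137 CPM in WT and 1289 to 1608 CPM in KO. In the EphB2-positive sort edgeR called 0 of 11 pan-leukocyte genes between the genotypes, against 15.1% of all genes, and 0 had an unadjusted p under 0.05. Ptprc, the pan-leukocyte CD45 gene, had 0 reads in 4 of the 5 EphB2-positive libraries and 1 read in KO replicate 3, and Cd3e of the T cell receptor complex had 0 in all of them. Most of the pan-leukocyte sum there came from the single gene Lcp1, with 124 to 186 reads. T and NK lymphocyte markers summed to 6.17 to 8.88 CPM in the EphB2-positive libraries of both genotypes. The 11 myeloid genes summed to 18.7 to 22.2 CPM in WT and 32.4 to 48.8 CPM in KO EphB2-positive libraries, where Adgre1, S100a8, S100a9 and Tyrobp were at 0 in all of them. Of the 10 tested myeloid genes only Cd14, an endotoxin co-receptor, was called there, where 7.01% of all genes were called higher. Cd14 stood at 20.7 CPM in KO against 4.43 CPM in WT (log2 fold change 2.21 ± 0.38, edgeR adjusted p = 0.0045).

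Set against the pan-leukocyte sum, Slfn2 separated the genotypes in both sorts. For each 100 CPM of pan-leukocyte markers there were 0.694 and 3.88 CPM of Slfn2 in WT EphB2-positive, 2.08 and 1.87 in WT EphB2-negative, 35.7, 43.1 and 33.0 in KO EphB2-positive, and 22.4 and 29.6 in KO EphB2-negative libraries. The WT range of 0.694 to 3.88 and the KO range of 22.4 to 43.1 did not overlap, and the 2 WT EphB2-negative libraries, which differed in Slfn2 itself, were alike on this scale. In EphB2-positive cells most of that sum came from the single gene Lcp1, so the scale there is largely Slfn2 against Lcp1. The marker sums were highest in EphB2-negative cells. The part of blood cells in the Slfn2 level was not tested in either sort.

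Slfn1, the other short member and a regulator of thymocyte growth, was at the limit of detection outside the KO EphB2-negative libraries. It had 7 and 12 reads there (4.48 and 7.64 CPM), 0 and 1 read in WT EphB2-negative, and 0 reads in all 5 EphB2-positive libraries. The ratio of pooled CPM between KO and WT EphB2-negative cells was 25.8, with a 95% counting interval of 4.10 to 1073. Within KO, EphB2-positive cells had an at least 11.2-fold lower level, against the floor of 3 reads over the group. No test was made for Slfn1. T and NK lymphocyte markers summed to 24.2 and 672 CPM in WT and 1165 and 441 CPM in KO EphB2-negative libraries. These overlapped between the genotypes. Myeloid markers summed to 24.2 and 187 CPM in WT and 299 and 970 CPM in KO EphB2-negative libraries, which did not overlap. The part of blood cells in the Slfn1 reads was not tested.

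Slfn4, of the intermediate group and known from macrophages and other myeloid cells, showed its difference in the EphB2-negative sort. It had 48 and 63 reads in the KO libraries and 3 and 12 reads in the WT libraries, or 30.7 and 40.1 CPM against 1.37 and 5.81 CPM. The groups did not overlap, and the log2 fold change was 3.29 ± 0.70 (edgeR adjusted p = 0.0085). The call was lost without KO replicate 2 (adjusted p = 0.072) and with these 4 libraries alone (adjusted p = 0.071). In EphB2-positive cells Slfn4 had 0.491 and 3.45 CPM in WT and 1.33, 4.29 and 2.06 CPM in KO. These overlapped, with a log2 fold change of 0.42 ± 0.85 (adjusted p = 0.80).

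Slfn4 was lower in EphB2-positive than in EphB2-negative KO cells, by -3.70 ± 0.64 on the log2 scale (edgeR adjusted p = 0.001). In WT the same difference was -0.83 ± 0.88 (adjusted p = 0.56). The genotype effect differed between the sorts by -2.87 ± 1.15 (adjusted p = 0.13), by -4.18 without WT EphB2-negative replicate 2 (adjusted p = 0.0068) and by -0.99 without WT EphB2-positive replicate 2 (adjusted p = 0.83). The myeloid markers moved with Slfn4: their sum was 24.2 and 187 CPM in WT and 299 and 970 CPM in KO EphB2-negative libraries. Of 10 tested myeloid genes, 4 were called higher in KO, against 13.7% of all genes. For each 100 CPM of myeloid markers there were 5.66 and 3.11 CPM of Slfn4 in WT and 10.3 and 4.14 CPM in KO EphB2-negative libraries. On that scale the genotypes overlapped, unlike Slfn4 itself. For each 100 CPM of pan-leukocyte markers there were 1.04 and 0.511 CPM of Slfn4 in WT and 1.91 and 3.11 CPM in KO EphB2-negative libraries, which did not overlap. The part of myeloid cells in the Slfn4 difference was not tested.

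Slfn3, the intermediate member closest to Slfn4 in sequence, had 12 reads in all 9 libraries together. There were 1 and 1 reads in WT EphB2-positive, 1 and 2 in WT EphB2-negative, 0, 1 and 0 in KO EphB2-positive, and 4 and 2 in KO EphB2-negative libraries. A difference between groups was not detectable at this depth.

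Slfn5, a long nuclear member, was detected at 9.19 to 26.7 CPM in every library. It stood at 12.3 and 10.4 CPM in WT EphB2-positive and at 12.7, 12.9 and 9.25 CPM in KO EphB2-positive libraries, which overlapped (log2 fold change 0.03 ± 0.33, edgeR adjusted p = 0.97). In EphB2-negative cells it stood at 15.5 and 9.19 CPM in WT and at 21.8 and 26.7 CPM in KO. The groups did not overlap, but the log2 fold change of 0.97 ± 0.34 did not pass the test (adjusted p = 0.057). It passed with DESeq2's size factors (adjusted p = 0.041) and without WT EphB2-negative replicate 1 (adjusted p = 0.014). Within KO, Slfn5 was lower in EphB2-positive cells by -1.06 ± 0.31 on the log2 scale (adjusted p = 0.016), a call that held in 13 of 16 alternatives and was lost without KO EphB2-negative replicate 2 (adjusted p = 0.12) or KO EphB2-positive replicate 3 (adjusted p = 0.057), among others. Within WT the difference was -0.13 (adjusted p = 0.84). Absorptive enterocyte markers moved with Slfn5 within KO, with sums of 368 to 460 CPM in EphB2-positive and 20276 to 29342 CPM in EphB2-negative libraries. Within WT they summed to 1140 and 2400 CPM in EphB2-positive and 9627 and 24266.5 CPM in EphB2-negative libraries. There Slfn5 was not called, and its lowest level, 9.19 CPM, was in the library with the sum of 24266.5 CPM. Other lists moved the same way within KO, with 11 of 11 pan-leukocyte and 18 of 22 interferon-stimulated genes called lower in EphB2-positive cells. Of all genes, 29.2% were called lower there. In the other direction, 8 of 8 crypt stem cell and 12 of 12 cell cycle genes were called higher, against 26.4% of all genes. The part of enterocytes or of other cells in the Slfn5 level was not tested.

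Slfn9, a long member, followed the reverse order of Slfn2 between the sorts. Among EphB2-positive libraries it had 68.8 and 60.2 CPM in WT and 115, 97.6 and 98.2 CPM in KO. Among EphB2-negative libraries it had 42.9 and 10.6 CPM in WT and 3.20 and 8.28 CPM in KO. No EphB2-negative library reached the lowest EphB2-positive one. Within KO, the level in EphB2-positive cells was higher by 4.15 ± 0.61 on the log2 scale (edgeR adjusted p = 0.00073). Within WT the difference was 1.26 ± 0.50 (adjusted p = 0.15). Without WT EphB2-negative replicate 1 it was 2.59 (adjusted p = 2.3e-06), and without replicate 2 of that group it was 0.57 (adjusted p = 0.20).

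Between the genotypes, Slfn9 was lower in KO in EphB2-negative cells by -2.22 ± 0.68 on the log2 scale (edgeR adjusted p = 0.04). WT EphB2-negative replicate 1 carried much of that value: without it the difference was -0.88 (adjusted p = 0.15), and the call held in 4 of 15 alternatives. In EphB2-positive cells all 3 KO libraries were above both WT libraries, with a log2 fold change of 0.68 ± 0.43 that did not pass (adjusted p = 0.34). With the 5 EphB2-positive libraries alone the value was 0.67 ± 0.14 and passed (adjusted p = 0.00065), as it did without WT EphB2-negative replicate 1 (adjusted p = 0.0035) or replicate 2 (adjusted p = 0.003). The genotype effect differed between the sorts by 2.90 ± 0.80 (adjusted p = 0.051), and the adjusted p was 0.0046 with DESeq2. Without WT EphB2-negative replicate 1 that difference was 1.57 (adjusted p = 0.028), and without replicate 2 it was 3.58 (adjusted p = 8.8e-07).

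Genes of the cell cycle moved with Slfn9. In the EphB2-positive sort the 12 cell cycle genes summed to 3002 to 3260 CPM in WT and 3357 to 3404 CPM in KO. In the EphB2-negative sort they summed to 2412 and 960 CPM in WT and 615 to 754 CPM in KO. For each 100 CPM of these genes there were 2.11 and 2.01 CPM of Slfn9 in WT EphB2-positive, 3.42, 2.87 and 2.90 in KO EphB2-positive, 1.78 and 1.11 in WT EphB2-negative, and 0.424 and 1.35 in KO EphB2-negative libraries. The KO EphB2-positive libraries remained above the WT ones on this scale, while the EphB2-negative genotypes overlapped. The part of cycling cells in the Slfn9 difference was not tested.

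**Figure D2:**
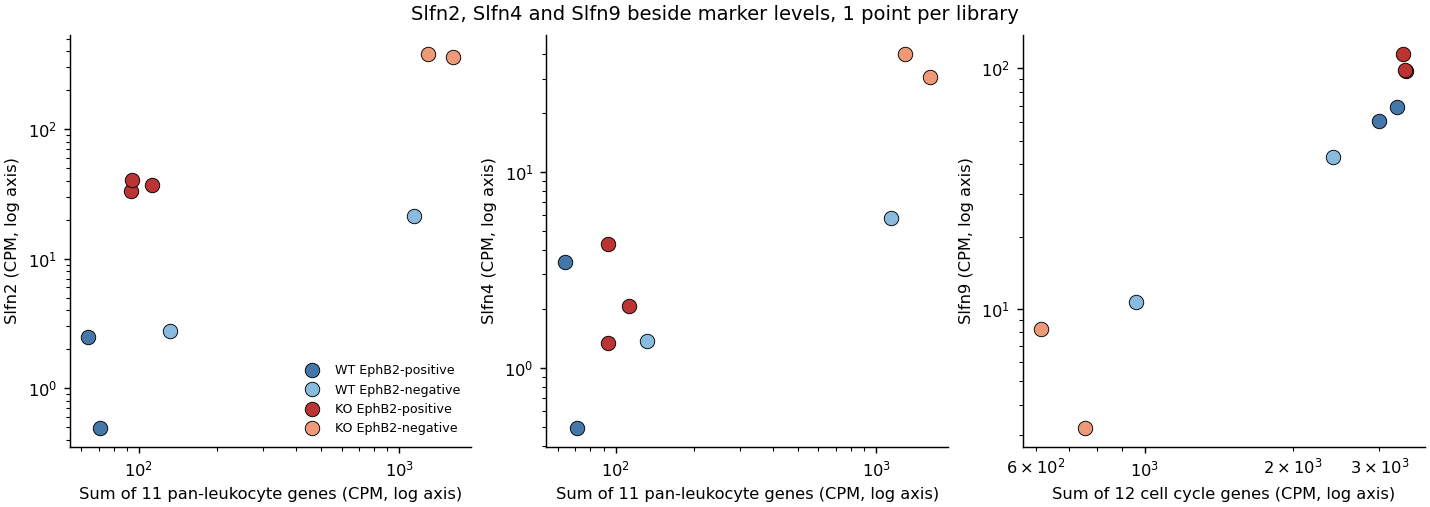
Slfn2 and Slfn4 against the sum of 11 pan-leukocyte genes, and Slfn9 against the sum of 12 cell cycle genes, in CPM on log axes, with 1 point per library coloured by group. The KO libraries lie above the WT libraries of like pan-leukocyte level for Slfn2, at 33.4 to 40.5 CPM against 0.491 and 2.47 CPM in EphB2-positive cells, whereas for Slfn4 the EphB2-positive libraries of both genotypes mix.

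Slfn8, whose coding sequence and promoter are close to those of Slfn9, showed no such pattern. Its EphB2-positive libraries had 7.37 and 3.95 CPM in WT and 7.34, 5.71 and 7.20 CPM in KO. Its EphB2-negative libraries had 4.57 and 4.84 CPM in WT and 6.40 and 3.18 CPM in KO. All groups overlapped except WT EphB2-negative with KO EphB2-positive, a pair that was not compared. The log2 fold change of KO against WT was 0.25 ± 0.48 (edgeR adjusted p = 0.79) in EphB2-positive and 0.03 ± 0.56 (adjusted p = 0.98) in EphB2-negative cells. With 5 to 15 reads in a library, these errors leave room for differences of a size that was not detectable here. Between the lowest and the highest library Slfn9 ran from 3.20 to 115 CPM and Slfn8 from 3.18 to 7.37 CPM.

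**Figure D3:**
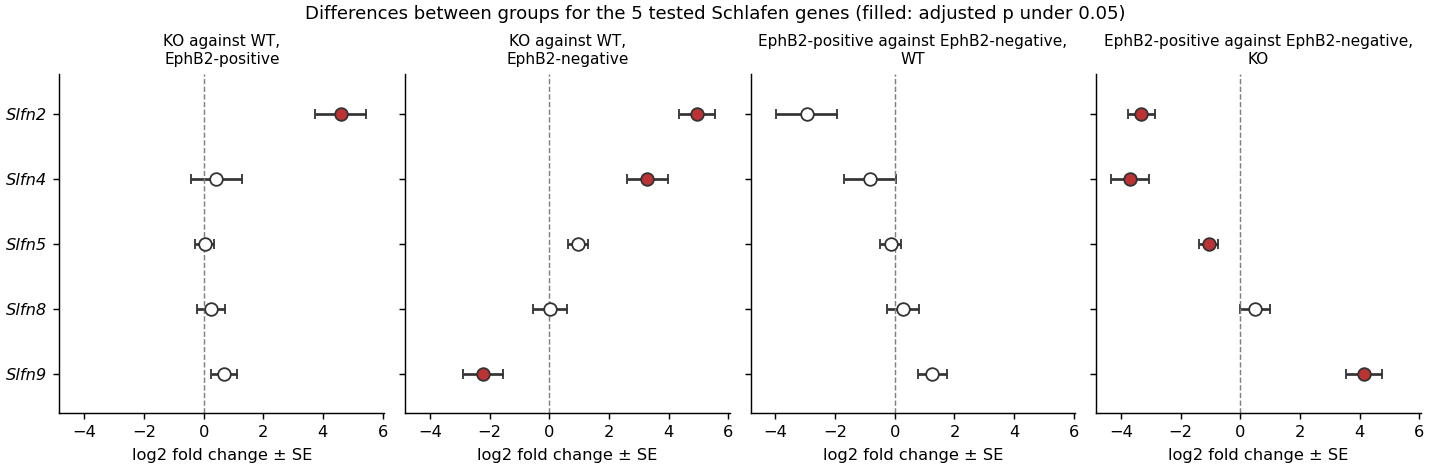
Log2 fold change ± SE of the 5 tested Schlafen genes in the 4 comparisons of groups, with filled points where the edgeR adjusted p was under 0.05. Slfn2 lies at 4.59 and 4.96 for KO against WT in the 2 sorts, Slfn9 and Slfn4 lie on opposite sides of 0 for the sorts within KO, and no point is filled for the sorts within WT.

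The make-up of the Schlafen reads changed with sort and genotype. Slfn9 held 74.4 to 76.5% of the reads of the 7 genes in WT EphB2-positive libraries and 60.5 to 67.7% in KO EphB2-positive libraries, and 0.744 to 1.77% in KO EphB2-negative libraries. Slfn2 held 0.546 to 3.05% in WT EphB2-positive, 19.7 to 25.1% in KO EphB2-positive and 81.4 to 83.9% in KO EphB2-negative libraries. The WT EphB2-negative libraries differed from each other, with Slfn9 at 63.5% and Slfn2 at 4.05% in replicate 1, and Slfn9 with 22 and Slfn2 with 44 of 110 reads in replicate 2. These shares rest on 110 to 183 reads per WT library, 254 to 339 per KO EphB2-positive library and 672 to 736 per KO EphB2-negative library.

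**Figure D4:**
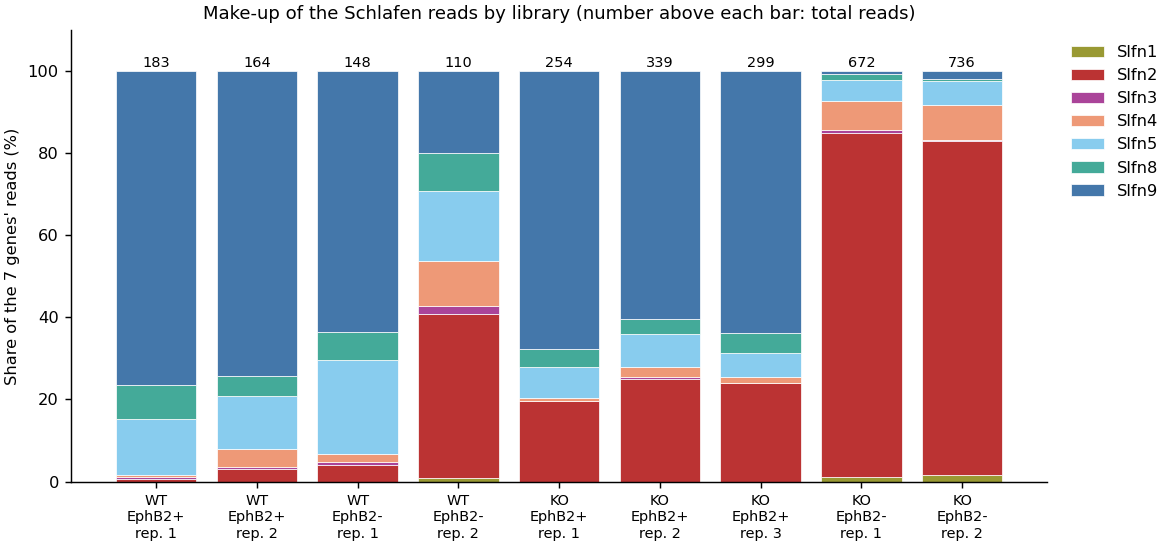
Share of the reads of the 7 Schlafen genes held by each gene (percent, stacked bars from 0), with 1 bar per library and the number of reads above it. Slfn9 fills most of the bar in the 5 EphB2-positive libraries, at 60.5 to 76.5%, and Slfn2 in the 2 KO EphB2-negative libraries, at 81.4 to 83.9%.

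Per kilobase of exon, which allows levels of different genes to be set side by side, the leading member was Slfn9 in WT EphB2-positive cells and Slfn2 in the other groups. In WT EphB2-positive cells the mean level of Slfn9 was 10.8 CPM per kb, followed by Slfn5 at 1.79, Slfn8 at 1.38, Slfn2 at 0.889, Slfn4 at 0.498 and Slfn3 at 0.144 CPM per kb, with Slfn1 at 0 reads. From Slfn5 down to Slfn4, the libraries of each member overlapped with those of the next. In KO EphB2-positive cells Slfn2 stood at 22.2 and Slfn9 at 17.4 CPM per kb, with libraries of 20.05 to 24.3 and 16.4 to 19.2 that did not overlap, above Slfn5 at 1.83 and Slfn8 at 1.65 CPM per kb, which overlapped. In KO EphB2-negative cells the order was Slfn2 at 223, Slfn4 at 8.93, Slfn5 at 3.83, Slfn1 at 3.25, Slfn8 at 1.17, Slfn9 at 0.962 and Slfn3 at 0.562 CPM per kb. There Slfn2 and Slfn4 stood clear of the rest, while Slfn5 overlapped with Slfn1, Slfn8 with Slfn9 and Slfn9 with Slfn3. In WT EphB2-negative cells Slfn2 at 7.22 and Slfn9 at 4.49 CPM per kb led, but their libraries, at 1.65 and 12.8 and at 7.19 and 1.79 CPM per kb, overlapped.

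The other Schlafen loci gave few reads. The pseudogene Slfn10-ps, of whose 50-base stretches 19.7% occur in another family gene, had 3 and 6 reads in WT EphB2-positive, 13 and 0 in WT EphB2-negative, 13, 11 and 17 in KO EphB2-positive, and 4 and 2 in KO EphB2-negative libraries. Its log2 fold change in EphB2-positive cells was 1.73 ± 0.95 (edgeR adjusted p = 0.26). Slfn14, a long member known from blood platelets, and Slfnl1, a related gene on chromosome 4, had 2 reads each in all libraries together.

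Among the 37 annotated genes that are not Schlafen loci and lie in the cluster or within 200 kb of it, 21 were in the tables and 13 were tested. For KO against WT in EphB2-positive cells edgeR called 0 of 13, against 15.1% of all genes called, and 0 had an unadjusted p under 0.05. In EphB2-negative cells 1 was called, against 29.9% of all genes. It was Nle1, a ribosome assembly factor, at 8.63 ± 4.99 CPM in KO against 24.0 ± 7.32 CPM in WT (SD, n = 2 each, log2 fold change -1.48 ± 0.41, edgeR adjusted p = 0.025). Within KO 4 were higher in EphB2-positive cells (Lig3, Nle1 and Taf15 among them) and 2 lower (AI662270, Mmp28), which is 46.2% of the 13 tested neighbours against 55.5% of all genes. AI662270, which lies inside the cluster, had 0 reads in the EphB2-positive libraries and 18.8 ± 2.32 CPM in the KO EphB2-negative ones.

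The interferon pathway was examined with lists of 12 receptors and signal transducers and 24 interferon-stimulated genes. Of 22 interferon-stimulated genes tested, 4 were higher and none lower in KO in EphB2-positive cells, where 7.01% of all genes tested were higher and 8.07% lower, with a median log2 fold change of 0.50 against -0.01 over all genes tested. They were Isg15, a ubiquitin-like modifier, Zbp1, a nucleic acid sensor, Bst2, a membrane tether of enveloped viruses, and Parp14, an ADP-ribosyltransferase. Zbp1 had 0.982 and 0.493 CPM in WT and 14.0, 21.0 and 31.4 CPM in KO EphB2-positive libraries (log2 fold change 4.80 ± 1.05, edgeR adjusted p = 0.021). Its groups did not overlap, as for Slfn2, but the WT side rests on 3 reads. The count of 4 was 9 with the EphB2-positive libraries alone, 0 without KO replicate 2 of that sort and 1 without KO replicate 3. It also changed when a WT library was left out, as the calls over all genes did, with the ranges given in the closing section. Counts over all genes in each of these fits are not reported here, so nothing is read from the changes.

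In EphB2-negative cells 7 of the 22 interferon-stimulated genes were higher in KO and none lower, against 13.7% of all genes higher and 16.2% lower, with a median of 0.95 against -0.09 over all genes. Within KO 18 were lower in EphB2-positive cells and none higher, against 29.2% of all genes lower and 26.4% higher. Within WT 5 were lower and none higher, against 3.77% lower and 0.656% higher. With the EphB2-negative libraries alone the count of 7 was 0, and with the WT libraries alone the count of 5 was 0. Both counts also changed when 1 library was left out, as the calls over all genes did, with the ranges given in the closing section. Counts over all genes in each of these fits are not reported here, so nothing is read from the changes. Irf7, a transcription factor that amplifies the type I response, was among the 7, at 134 and 173 CPM in KO against 30.1 and 83.7 CPM in WT (log2 fold change 1.43 ± 0.39, edgeR adjusted p = 0.024), whereas in EphB2-positive cells its value was -0.11 ± 0.43 (adjusted p = 0.91).

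Among the 12 receptors and signal transducers, Stat2 and Irf9, which act together downstream of the type I interferon receptor, had log2 fold changes of 0.80 ± 0.45 and 0.67 ± 0.25 for KO against WT in EphB2-positive cells and of 0.89 ± 0.42 and 0.68 ± 0.25 in EphB2-negative cells. None of these 4 values passed (edgeR adjusted p from 0.064 to 0.28). For both genes, every KO library was above every WT library in each sort. The share of all genes tested with that order was 26.9% in EphB2-positive and 28.7% in EphB2-negative cells. In EphB2-positive cells 1 of the 12 was called higher and 1 lower, against 7.01% and 8.07% of all genes. In EphB2-negative cells 2 were higher and 0 lower, against 13.7% and 16.2%. Within KO 11 were lower in EphB2-positive cells and 0 higher, against 29.2% and 26.4%. Ifngr2, a chain of the interferon-gamma receptor, was lower in KO EphB2-positive cells by -1.04 ± 0.17 on the log2 scale (adjusted p = 0.0032). Ifngr1, the ligand-binding chain, was higher in KO EphB2-negative cells by 0.74 ± 0.16 (adjusted p = 0.01).

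The genes whose log2 CPM followed a Schlafen gene most closely over the 9 libraries were looked up for the 3 members with a mean of at least 10 CPM. For Slfn2 they were Rrbp1 (Pearson r = 0.994), Il4ra (0.994) and Pim1 (0.992). For Slfn9 they were Hook1 (0.994), Yap1 (0.994) and Tma16 (0.993), and for Slfn5 they were Gsto1 (0.977), Slc13a1 (0.936) and Cox4i1 (0.936). These are descriptions over libraries that fall into 4 groups, picked as the highest of all genes tested, and the points share the sort, the genotype and the library.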

How the data were processed

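Per the labels' protocols, cDNA of poly(A) RNA from the sorted cells was amplified by long-distance PCR before Illumina sequencing. The authors deposited raw read counts per gene symbol for each of the 9 libraries. Per the submitters' processing notes, the tools were CASAVA 1.4, FastQC, Bowtie2, HTSeq and DESeq2 and the build was mm10. Annotation, strand setting and filters were not given in the sources used here. The 5 summary lines of each table were left out: reads in no feature were 9.97 to 14.7% and ambiguous reads 1.89 to 2.28%.

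One fit over the counts of all 9 libraries was made with edgeR 4.0.16 (R 4.3.3, limma 3.58.1): filterByExpr by group, TMM scaling, 4 group means and a robust quasi-likelihood F test with 5 residual degrees of freedom. P-values were adjusted by Benjamini-Hochberg over the 11577 genes tested. Each SE was derived from the log2 fold change and its F statistic. DESeq2 1.42.0 was an alternative, beside other scalings, filters, blocks and leaving out each library. The edgeR procedure was tried on simulated counts with the same spread for all genes and known changes in the KO EphB2-positive group only. That setting lacks the uneven WT EphB2-negative pair of these data. Loci come from GENCODE vM21 and promoters from RefSeq; identity was computed on coding bases, because protein sequences were not used here. Figures were drawn with matplotlib 3.10.9.

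The members and gene lists were chosen with earlier results of these data known. Named genes are the 7 members, the other Schlafen loci, called genes within 200 kb of the cluster, Stat2, Irf9, Irf7 and the 3 members of each interferon list with the lowest p for KO against WT in each sort, the 3 genes most alike to a member with a mean of at least 10 CPM, Nfkbia, Ephb2 and the markers. Some of these are only counted or left to the closing section, and some genes that the rule takes are not reported here.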

Additional observations from a re-analysis of the deposited data

Results flagged for a closer look

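Of the interferon genes and label checks named by rule, 3 had a genotype effect that differed between the sorts by edgeR's test of the difference itself (KO against WT in EphB2-positive minus EphB2-negative cells). For Ifngr2, a chain of the interferon-gamma receptor, the effects differed by -1.17 ± 0.24 on the log2 scale (adjusted p = 0.018): the mean level was 49.7 CPM in KO and 102 CPM in WT EphB2-positive cells, and in EphB2-negative cells the libraries stood at 142 and 183 CPM in KO and at 137 and 160 CPM in WT. For Tyk2, a kinase of the type I interferon receptor, they differed by -1.31 ± 0.37 (adjusted p = 0.047), with 30.4 CPM in KO and 45.3 CPM in WT EphB2-positive cells on average, and EphB2-negative libraries of 85.1 and 90.4 CPM in KO and 42.0 and 62.4 CPM in WT. For Ephb2, the gene of the sorted receptor, they differed by 1.80 ± 0.35 (adjusted p = 0.015), with 179 CPM in KO and 151 CPM in WT EphB2-positive cells on average, and EphB2-negative libraries of 30.7 and 34.4 CPM in KO and 125 and 66.8 CPM in WT. WT EphB2-negative replicate 1, at 125 CPM, lay nearer to the WT EphB2-positive libraries, at 142 and 160 CPM, than to replicate 2 of its own group. No Schlafen gene passed that test with edgeR, and 2 had an unadjusted p under 0.05.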

How the results depend on the processing

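Slfn2, Slfn4 and Slfn9 were called between the sorts within KO in 16 of 16 alternatives. For KO against WT, Slfn2 was called in 13 of 15 alternatives in EphB2-positive cells (log2 fold change 3.88 to 6.07) and in 14 of 15 in EphB2-negative cells (4.12 to 7.04), and Slfn4 in 13 of 15 in EphB2-negative cells. The causes of the changes below were not tested. With only the compared libraries, the number of Schlafen genes called was 2 for KO against WT in EphB2-positive and 0 in EphB2-negative cells, and that of interferon-stimulated genes was 9, 0 and, between the sorts within WT, 0. Counts over all genes in these fits are not reported here. The counts with only the compared libraries, here and above, are therefore not read as results about the listed genes. DESeq2 called 1 Schlafen gene and 0 interferon-stimulated genes for the difference of the genotype effect, and 8 interferon-stimulated genes between the sorts within WT. Its counts over all genes are not reported here either, so nothing is read from these counts.

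Leaving out 1 library at a time, the number of Schlafen genes called ranged from 0 to 2 and from 1 to 4 for KO against WT in EphB2-positive and EphB2-negative cells, from 0 to 2 and from 3 to 5 between the sorts within WT and KO, and from 0 to 3 for the difference of the genotype effect. For interferon-stimulated genes these ranges were 0 to 9, 3 to 19, 0 to 19, 13 to 21 and 0 to 6, and for all genes 568 to 3479, 1096 to 5834, 0 to 5009, 4437 to 7697 and 32 to 3996. Where this leaves an arm with 1 library, that library is assumed to vary like the other groups. Values that changed sign were, for KO against WT in EphB2-positive cells, Slfn4 (-0.37 to 2.29), Slfn5 (-0.075 to 0.17) and Slfn8 (-0.12 to 0.76), in EphB2-negative cells Slfn8 (-0.57 to 0.43), between the sorts within WT Slfn4 (-2.70 to 0.49), Slfn5 (-0.47 to 0.30) and Slfn8 (-0.23 to 0.63), and for the difference of the genotype effect Slfn2 (-2.44 to 1.11) and Slfn8 (-0.17 to 0.82).

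Whether the replicate numbers pair the samples is not given in the labels. Deviations of same-numbered libraries from their group means correlated at 0.146 for the sorts within WT and at 0.041 and -0.076 within KO. Between the genotypes they correlated at -0.064 and -0.030 in EphB2-positive and 0.0014 in EphB2-negative cells. In a group of 2 libraries the deviations mirror each other, so these values cannot decide on pairing. Within WT, same-numbered libraries also share the code described below. With a replicate block, 1, 2, 0, 3 and 0 Schlafen genes were called in the 5 comparisons, Slfn8 for KO against WT in EphB2-negative cells had a value of -0.025, Slfn5 between the sorts within KO had -0.92 (edgeR adjusted p = 0.07, not called), and 0 interferon-stimulated genes were called for the difference of the genotype effect. Same-code libraries of the 2 sorts, by a code in the file names whose meaning the labels do not give, correlated at 0.146 in WT and at 0.076 and 0.114 in KO. With a block on that code, 1 Schlafen gene (Slfn2, adjusted p = 0.0035 with edgeR) and 9 interferon-stimulated genes were called between the sorts within WT. Counts over all genes with either block are not reported here, so nothing is read from the counts with a block. The order of levels per kilobase was the same with the longest transcript. At 1503972 to 2074076 reads per library, members with few reads, Slfn1, Slfn3 and Slfn8, are limited by depth.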
